A study of Mus musculus with 11 samples.

Results

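MHC class I presentation genes were followed in 11 mouse RNA libraries of normal B cell progenitors and B cell leukemia. The members were the 10 rows of the expression table, of 23071 in all, with the identifiers H2-K1, H2-D1, H2-T23, H2-M3, B2m, Tap1, Tap2, Tapbp, Erap1 and Nlrc5. The study searched for further mutations behind leukemia in mice with impaired B cell transcription factors. All mice were C57BL/6, with no treatment or age stated. Wild-type progenitor B cells came from bone marrow by column purification, as 3 libraries from pools of 3, 7 and 6 mice. Progenitor B cells with 1 mutant Ebf1 copy (Ebf1+/-) were prepared the same way, as 3 libraries from pools of 3, 6 and 7 mice. The 5 leukemia libraries, labelled Pax5+/- x Ebf1+/-, came from flash-frozen lymph node cell suspensions of 1 leukemic mouse each. Pax5 and Ebf1 encode transcription factors of the B lineage. The labels state no column purification for the lymph node cells, and no wild-type lymph node was sequenced. Genotype, leukemic state, tissue, purification, freezing and pooling differed together between leukemia and the other groups, so their parts cannot be told apart.

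MHC class I molecules carry peptides from inside the cell to its surface, where CD8 T cells read them. A heavy chain (H2-K1 and H2-D1 encode the classical ones in this strain) pairs with the light chain β2-microglobulin, the product of B2m. The proteasome cuts proteins into peptides, the transporter made of Tap1 and Tap2 moves them into the endoplasmic reticulum, Erap1 trims them, and tapasin (Tapbp) bridges transporter and heavy chain during loading. Nlrc5 is a transactivator that acts at class I promoters through factors bound to the X and Y boxes. H2-T23 encodes Qa-1, which presents leader peptides to receptors of NK cells, and H2-M3 presents formylated peptides.

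The shared promoter sequence is shown because the X and Y boxes are the elements through which Nlrc5 is known to act. The letters TGACG (the core of the X2 box), then 20 bases of any kind, then ATTGG (the Y box CCAAT on the other strand) were searched on both strands in the 250 bases before each RefSeq transcript start. They occurred in 30 of 32851 windows (0.0913%), in 26 of 27025 genes, and in 4 of the 8 members in the RefSeq table, namely H2-K1, H2-D1, H2-M3 and B2m. The pair was chosen after the sequences had been looked at. Tap2 and Nlrc5 were not matched. In the stretches below, 5′ to 3′ on the strand of the gene, capitals mark the X2 core and the Y box.
H2-K1: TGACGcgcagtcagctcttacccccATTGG
H2-D1: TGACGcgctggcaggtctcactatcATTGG
H2-M3: TGACGcttctccaattcccattctaATTGG
B2m: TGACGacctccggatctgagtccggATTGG
These stretches lie at chr17:34000359-34000388 (minus strand), chr17:35262993-35263022 (plus), chr17:37270188-37270217 (plus) and chr2:122147609-122147638 (plus) of GRCm38.p6. They begin 41, 101, 46 and 78 bases before the transcript start of H2-K1, H2-D1, H2-M3 and B2m. Between the boxes, H2-K1 and H2-D1 had the same base at 13 of 20 positions, while H2-K1 and B2m did at 3 of 20.

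The longer upstream stretches of a heavy chain and of the light chain show where the pair sits. Capitals mark the same boxes and, farther upstream in H2-K1, the kappa B site of enhancer A.
H2-K1, chr17:34000348-34000527, minus strand: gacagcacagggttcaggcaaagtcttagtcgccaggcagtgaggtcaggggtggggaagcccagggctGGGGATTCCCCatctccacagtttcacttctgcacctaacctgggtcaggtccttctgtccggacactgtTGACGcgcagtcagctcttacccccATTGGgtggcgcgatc
B2m, chr2:122147507-122147685, plus strand: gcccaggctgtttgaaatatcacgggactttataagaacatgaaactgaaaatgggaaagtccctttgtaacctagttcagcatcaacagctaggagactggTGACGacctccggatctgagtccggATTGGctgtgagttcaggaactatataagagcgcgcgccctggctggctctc
The same letters of the kappa B site were found in 0.0304% of all windows, and among the members in H2-K1 and H2-D1. The core of the interferon-stimulated response element, searched as GAAA, 2 bases of any kind and GAAA, was found in 2.98% of windows and in H2-T23 and B2m. TGACG alone was in 17.8% of windows and 5 members (Tap1 besides the 4 above), and CCAAT alone in 33.8% of windows and 7 members, so either box by itself was common. These are matches of exact letters in a window, so an element spelled otherwise in any member would be missed, and binding was not measured.

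Library totals ran from about 8510000 to 15310000 reads. Each member was covered by 274 reads (H2-M3) to 36925 reads (B2m) in every library, so counting error was small beside the differences between libraries. Ebf1 itself was at 83.4 to 112 FPKM in wild type, 43.4 to 86.5 in Ebf1+/- and 54.3 to 81.4 in leukemia, and Pax5 at 175 to 312, 89.0 to 254 and 71.4 to 162 FPKM. FPKM is the read count divided by gene length and library total. B lineage markers were present in every library, with summed levels of 3267 to 5340 FPKM in wild type, 2427 to 6429 in Ebf1+/- and 3466 to 4680 in leukemia. The 11 granulocyte markers summed to 591 to 3350 FPKM in wild type, 2659 to 10500 in Ebf1+/- and 2.19 to 8.36 in leukemia, with Cebpe at 0 reads in all leukemias. Monocyte and macrophage markers summed to 394 to 661, 488 to 2044 and 58.1 to 159 FPKM in these groups, and erythroid markers to 106 to 655, 266 to 652 and 0.475 to 0.972. Megakaryocyte and platelet markers summed to 73.0 to 430 FPKM in wild type, 137, 251 and 3870 in Ebf1+/- replicates 1, 2 and 3, and 0.382 to 1.31 in leukemia. The 11 T cell markers summed to 98.2 to 162, 94.2 to 178 and 113 to 203 FPKM. The largest part of this sum in leukemia was Lck, a kinase at 51.7 to 106 FPKM there and 12.4 to 18.9 in wild type. Lat, Cd2 and Thy1 reached up to 72.2, 47.5 and 42.8 FPKM in leukemia. The T cell receptor chain Cd3e was at 0.881 to 3.17 FPKM in wild type, 1.49 to 5.14 in Ebf1+/- and 0.377 to 2.05 in leukemia, and the median difference of the 10 T cell markers tested was -0.49 in leukemia against wild type. Lymph node stroma markers summed to 4.67 to 88.2 FPKM in wild type, 2.90 to 12.6 in Ebf1+/- and 0.0813 to 0.589 in leukemia. Of these, Pdpn, Ccl19 and Ccl21a were at 0 in every library, as were the erythroid markers Hba-a1, Hba-a2, Hbb-bs and Hbb-bt. A gene at 0 in every library gives no measure of its cells here. The part of these other cells in the differences between leukemia and the purified cells was not tested. In such bulk RNA, a change in the share of cells of a type and a change in RNA per cell cannot be told apart. The labels do not say whether the wild-type and Ebf1+/- pools share animals or days, so p-values measure the spread between these libraries.

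All 10 genes were expressed in every library, and on the per-length scale their order was nearly fixed. By median FPKM in wild type it ran B2m, H2-K1, H2-D1, H2-T23, Tap1, Tapbp, Tap2, Erap1, H2-M3 and Nlrc5, from 1554 down to 11.4 FPKM, and it was the same in Ebf1+/-. The ranges of Tap1 and Tapbp, and of Erap1 and H2-M3, overlapped in both groups, so these neighbours did not differ beyond their spread. In Ebf1+/- the ranges of H2-D1 and H2-T23 overlapped too, but H2-D1 was the higher within each of the 3 libraries. In leukemia Erap1 stood above Tapbp and Tap2 by its median, but above Tapbp within only 2 of 5 libraries. The ranges of Erap1, Tapbp and Tap2 overlapped from neighbour to neighbour, as did those of H2-T23 and Tap1 and of H2-M3 and Nlrc5.

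In leukemia the members that changed went in opposite directions. Against wild type, limma on log2(FPKM + 1) called 2 members higher (Erap1 and Nlrc5) and 2 lower (Tapbp and H2-D1) at an adjusted p under 0.05. In this comparison 44.8% of the 10968 genes tested were called (20.7% higher and 24.1% lower), so the 4 of 10 was close to the background. Groups did not overlap for 3 of the 10 members (Erap1, Nlrc5 and Tapbp), below the 46.3% of all genes tested. The median log2 fold change of the 10 members was -0.15, against -0.04 over all genes tested. Differences below are log2 fold changes on the log2(FPKM + 1) scale, with adjusted p-values from limma over all genes tested.

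**Figure D1:**
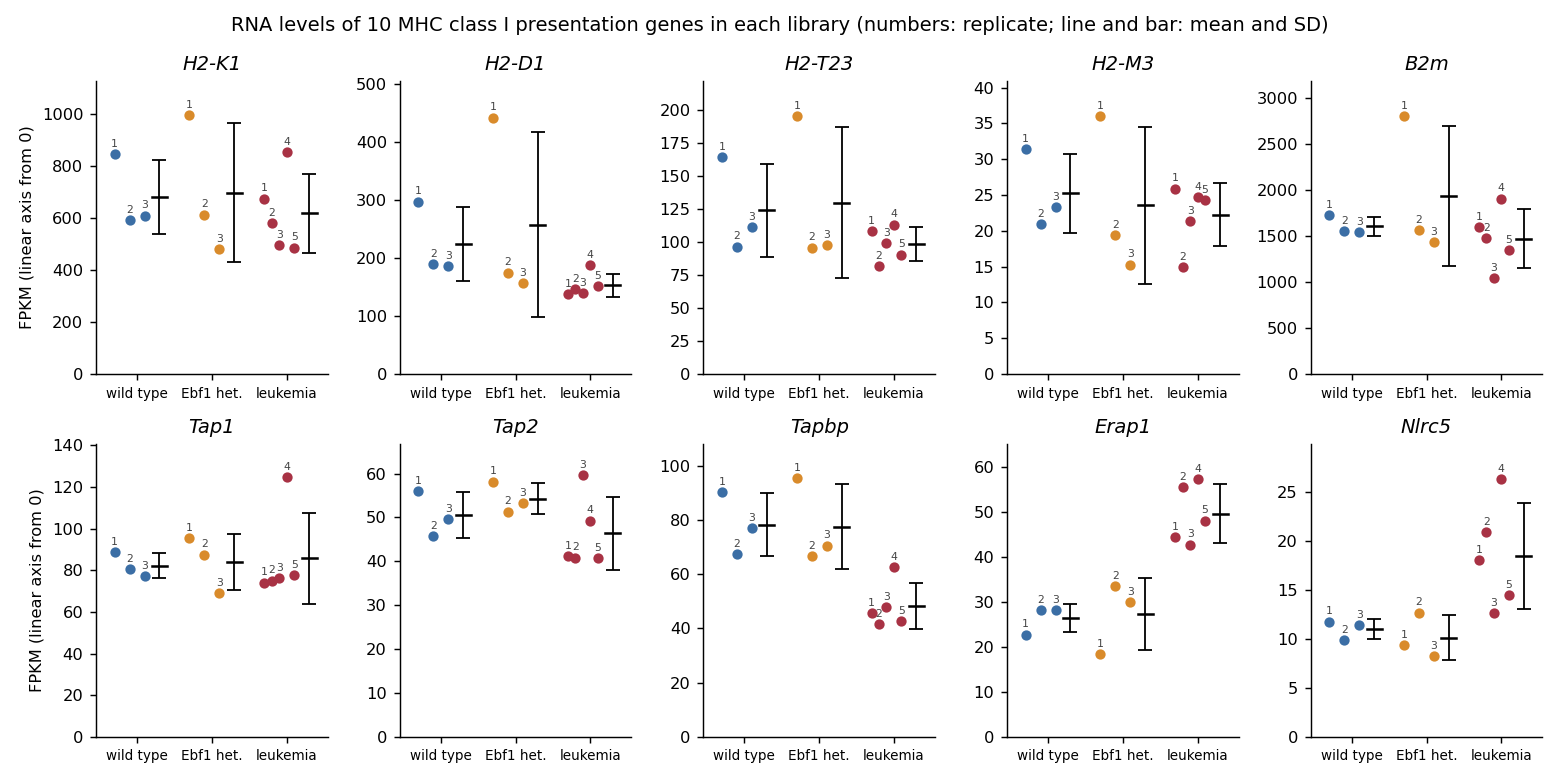
FPKM of each of the 10 genes in the 3 wild-type, 3 Ebf1+/- and 5 leukemia libraries (points, numbered by replicate), with the mean and SD beside each group; every axis is linear and starts at 0. Erap1 and Nlrc5 lie higher and Tapbp lower in all 5 leukemias than in all 3 wild-type libraries. Of all genes tested, 46.3% had no overlap in that comparison. The libraries numbered 1 of wild type and Ebf1+/- top their groups for most of the 10 genes.

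Of the 4 heavy chains, H2-D1 alone passed the test on the deposited scale. H2-K1 (chr17:33996017-34000347) was at 847, 593 and 609 FPKM in wild type, 997, 614 and 481 in Ebf1+/-, and 676, 580, 496, 855 and 487 in leukemia. Leukemia replicate 4 exceeded every wild-type library, and the groups overlapped throughout. The difference from wild type was -0.16, with a 95% interval of -0.62 to 0.31 (adjusted p = 0.562), so the interval spans falls and rises alike. Quantile scaling gave -0.59 for H2-K1 with an adjusted p of 0.0363, and median-ratio scaling -0.12 with 0.643.

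H2-D1 (chr17:35262730-35267499) was at 298, 190 and 186 FPKM in wild type, 443, 175 and 156 in Ebf1+/-, and 138, 147, 140, 188 and 152 in leukemia. Leukemia replicate 4 lay between the wild-type values, so the groups overlapped, and the other 4 leukemias lay below every wild-type and Ebf1+/- library. H2-D1 fell by 0.52 on the log2 scale against wild type (SE 0.17, adjusted p = 0.0341). Without wild-type replicate 1 the difference was -0.30 (adjusted p = 0.105), and the call was also lost without leukemia replicate 1, 2, 3 or 5 (adjusted p = 0.055 to 0.0681) and with all groups in 1 fit (adjusted p = 0.195). Set against H2-K1 in the same library, H2-D1 stood at a ratio of 0.305 to 0.352 in wild type, 0.285 to 0.444 in Ebf1+/- and 0.205 to 0.312 in leukemia, a ratio chosen after its values were seen.

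Both non-classical heavy chains overlapped between all groups. H2-T23 (chr17:36029773-36032855) was at 164, 96.6 and 111 FPKM in wild type, 196, 95.7 and 97.7 in Ebf1+/-, and 108, 82.1, 99.1, 113 and 90.6 in leukemia. Its difference in leukemia was -0.30 (interval -0.70 to 0.10, adjusted p = 0.194). H2-M3 (chr17:37270220-37274484) was at 31.4, 20.9 and 23.3 FPKM in wild type, 36.0, 19.4 and 15.3 in Ebf1+/-, and 25.9, 14.9, 21.4, 24.7 and 24.2 in leukemia. The value of H2-M3 in leukemia replicate 2 was below all wild-type libraries, and the difference was -0.18 (interval -0.61 to 0.26, adjusted p = 0.476).

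Heavy chains resemble each other, which limits how well their reads can be assigned. Of all 50-base windows of the longest annotated transcript, 8.8% were found in another gene for H2-K1, 14.3% for H2-D1, 28.8% for H2-T23 and 0.6% for H2-M3. For B2m, Nlrc5 and Erap1 the share was 0.0%. H2-Q6, H2-Q7, H2-T3, H2-T9, H2-M9 and H2-M10.1 were listed at 0 in all 11 libraries. How reads that fit several genes were counted is not given in the sources used here.

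B2m (chr2:122147686-122153083), the common light chain, was the most abundant member. Its level was 1728, 1554 and 1541 FPKM in wild type, 2810, 1566 and 1432 in Ebf1+/-, and 1603, 1476, 1041, 1908 and 1346 in leukemia. The wild-type values lay close together, with a coefficient of variation of 6.48%, and the leukemias spread on both sides of them. The difference in leukemia was -0.15 (interval -0.56 to 0.26, adjusted p = 0.527). This value depended on the scaling, since quantile scaling gave -0.78 (adjusted p = 0.00677).

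The ratio of both classical heavy chains to the light chain, which is free of library scaling, overlapped between the groups. H2-K1 plus H2-D1 over B2m was 0.663, 0.504 and 0.516 in wild type, 0.512, 0.504 and 0.446 in Ebf1+/-, and 0.508, 0.492, 0.612, 0.547 and 0.474 in leukemia. Wild-type replicate 1 had the highest ratio. The leukemia mean log2 ratio differed from wild type by -0.09 (two-sided exact permutation p = 0.518, where 5 against 3 libraries can reach 0.0179, and adjusted p = 0.666 over the 9 ratio tests made).

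Neither transporter subunit passed the test. Tap1 (chr17:34187553-34197225) was at 88.8, 80.4 and 77.3 FPKM in wild type, 95.6, 87.5 and 69.2 in Ebf1+/-, and 74.0, 75.0, 76.4, 125 and 77.8 in leukemia. Apart from replicate 4, the leukemias lay within 4 FPKM of each other and below the 2 higher wild-type values. The difference for Tap1 was 0.03 (interval -0.36 to 0.42, adjusted p = 0.898), and -0.11 without leukemia replicate 4.

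Tap2 (chr17:34203527-34216321) was at 56.1, 45.8 and 49.7 FPKM in wild type, 58.2, 51.4 and 53.3 in Ebf1+/-, and 41.2, 40.9, 59.7, 49.3 and 40.8 in leukemia. The highest Tap2 value was leukemia replicate 3, not replicate 4, and 3 of 5 leukemias lay below every other library. The difference was -0.13 (interval -0.45 to 0.19, adjusted p = 0.475). The Tap1 to Tap2 ratio was 1.56 to 1.75 in wild type, 1.30 to 1.70 in Ebf1+/- and 1.28 to 2.53 in leukemia. It spread more widely in leukemia, with replicates 3 and 4 at the ends, and its mean log2 difference from wild type of 0.17 did not pass (exact permutation p = 0.5, adjusted p = 0.666).

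Tapbp, which encodes tapasin, fell in leukemia. Tapbp (chr17:33915899-33929292) was at 90.4, 67.3 and 76.9 FPKM in wild type, 95.5, 66.7 and 70.6 in Ebf1+/-, and 45.7, 41.7, 48.0, 62.6 and 42.6 in leukemia. All 5 leukemias lay below all 6 other libraries, replicate 4 being the nearest. The difference from wild type was -0.70 (SE 0.15, adjusted p = 0.0054), and the call held under all 16 alternatives tried, with adjusted p-values of 0.00147 to 0.0247.

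The fall was also seen against Tap1 within each library. The Tapbp to Tap1 ratio was 0.838 to 1.02 in wild type, 0.762 to 1.02 in Ebf1+/- and 0.501 to 0.628 in leukemia, a ratio chosen after its values were seen. Of the exonic bases of Tapbp, 24.9% overlap Gm19412 on the other strand and 4.1% overlap Zbtb22 on the same strand. Zbtb22 was at 23.1 to 27.0 FPKM in wild type and 13.6 to 21.3 in leukemia. Whether counting used strand is not given in the sources used here, and the part of these neighbours in the Tapbp values was not tested.

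Erap1, the peptide-trimming enzyme of the endoplasmic reticulum, rose the most of the members. Erap1 (chr13:74639568-74693201) was at 22.7, 28.2 and 28.1 FPKM in wild type, 18.3, 33.5 and 29.9 in Ebf1+/-, and 44.3, 55.4, 42.7, 57.2 and 48.0 in leukemia. The lowest leukemia stood above the highest of the 6 other libraries. The difference from wild type was 0.88 (SE 0.13, adjusted p = 0.000732), and the call held under all 16 alternatives, with adjusted p-values of 0.000408 to 0.00934.

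Erap1 differed from the other members within the normal groups as well. It was lowest in replicate 1 of wild type and of Ebf1+/-, where most members were highest. The Erap1 to Tap1 ratio, chosen after its values were seen, was 0.256 to 0.363 in wild type, 0.192 to 0.432 in Ebf1+/- and 0.458 to 0.738 in leukemia, with no overlap between leukemia and the rest. Cast, which encodes the protease inhibitor calpastatin, shares 11.5% of the exonic bases of Erap1 on the opposite strand. It moved the other way, from 16.6, 17.4 and 17.5 FPKM in wild type to 10.5 to 12.8 in leukemia (difference -0.51, SE 0.09, adjusted p = 0.00251).

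Nlrc5, the transactivator, rose in leukemia, where 0 of the 4 heavy chains passed the test upward. Nlrc5 (chr8:94434356-94527272) was at 11.8, 9.90 and 11.4 FPKM in wild type, 9.38, 12.7 and 8.26 in Ebf1+/-, and 18.1, 20.9, 12.7, 26.3 and 14.5 in leukemia. The leukemias spread by a factor of 2.07 from lowest to highest, and all lay above the wild-type values. The difference was 0.66 (SE 0.21, adjusted p = 0.0311). The call was lost without wild-type replicate 1, 2 or 3 (adjusted p = 0.0635, 0.106 and 0.0683) and without leukemia replicate 1 or 2 (0.0543 and 0.0626), while the difference stayed between 0.59 and 0.70 in these fits.

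The genes whose level tracked Nlrc5 most closely across the 11 libraries, among genes averaging 5 FPKM or more, were Rnf169 (Pearson r = 0.95), Parp9 (0.94), Dtx3l (0.93), Dpp4 (0.93) and Haus3 (0.93). Dpp4, a cell surface peptidase, was at 31.7 to 42.9 FPKM in wild type, 18.9 to 36.2 in Ebf1+/- and 63.1 to 148 in leukemia. Parp9 and Dtx3l, which encode partners in one complex, were at 25.7 to 40.4 and 22.7 to 37.4 FPKM in leukemia, against 20.7 to 21.4 and 20.9 to 22.4 in wild type. For B2m the nearest were Napa (0.95), Phyh (0.94), Rab2a (0.91), Cmc2 (0.90) and Fuz (0.90). Points of 1 group share their tissue and preparation, so these are descriptions over the 11 libraries.

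**Figure D2:**
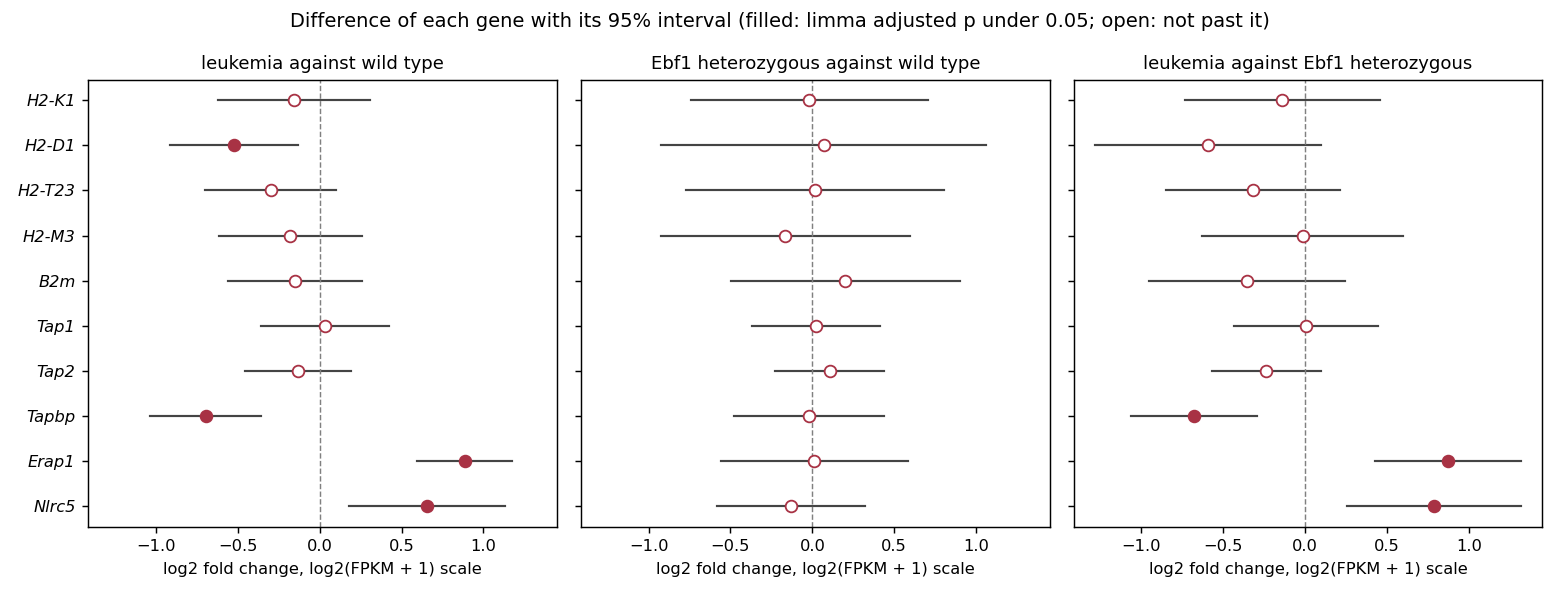
Log2 fold change of each gene with its 95% interval, on the log2(FPKM + 1) scale, in the 3 comparisons (filled points passed limma's adjusted p under 0.05). Tapbp and Erap1 stand at -0.70 and 0.88 against wild type and at -0.68 and 0.87 against Ebf1+/-, and every interval of the Ebf1+/- comparison spans 0.

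In Ebf1+/- progenitors no member differed from wild type beyond the spread. Limma called 0 of the 10 members and 0.0% of 11167 genes tested, with adjusted p-values of the members from 0.84 to 0.992. Over all genes, 468 were higher and 395 lower at an unadjusted p under 0.05. Limma with voom weights on the recovered reads also called 0, with 434 and 419. With a limma term for the replicate number, the unadjusted counts were 1085 higher and 715 lower, and 0 genes were called. Those numbers were taken to pair the libraries of these groups from the data, since the labels state no pairing. None of the 10 members had groups that did not overlap, where 15.6% of all genes did. The intervals were wide. For B2m the difference was 0.20 (interval -0.50 to 0.90), for H2-D1 0.07 (interval -0.92 to 1.06), for H2-K1 -0.02 (interval -0.74 to 0.71), for Erap1 0.01 (interval -0.56 to 0.58) and for Tap2 0.11 (interval -0.23 to 0.44).

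The libraries numbered 1 lay apart for most members. Ebf1+/- replicate 1 had the highest value of its group for 8 of 10 members, with H2-D1 at 443 FPKM against 175 and 156 in the others. Wild-type replicate 1 had the highest value for 9 of 10. The same libraries had the highest granulocyte marker sums of their groups, 10500 FPKM in Ebf1+/- replicate 1 and 3350 in wild-type replicate 1, against 591 to 3682 in the other 4. They also had the highest B lineage sums (6429 and 5340 FPKM) and monocyte and macrophage sums (2044 and 661). Their megakaryocyte and platelet sums (137 and 73.0) and erythroid sums (266 and 106) were the lowest of their groups. Ebf1+/- replicate 2 had a similar erythroid sum, 267 FPKM. The part of other cells in these member values was not tested. Without both libraries numbered 1, limma still called 0 members, with differences of -0.18 for H2-D1, -0.05 for B2m and -0.10 for H2-T23.

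Against the Ebf1+/- cells, the leukemias gave 3 member calls. Tapbp was lower (difference -0.68, SE 0.17, adjusted p = 0.0225), and Erap1 (0.87, SE 0.20, adjusted p = 0.0146) and Nlrc5 (0.79, SE 0.24, adjusted p = 0.0429) were higher. In this comparison 21.6% of 11161 genes were called (9.31% higher and 12.3% lower). Groups did not overlap for Erap1 and Tapbp, where 29.1% of all genes did not overlap, and for Nlrc5 the highest Ebf1+/- value of 12.7 FPKM met the lowest leukemia at 12.7. H2-D1 had a larger difference here than against wild type, -0.59, but with an interval of -1.28 to 0.10 it did not pass (adjusted p = 0.198).

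Leaving out 1 library changed these calls as well. Without Ebf1+/- replicate 1 or without leukemia replicate 2, only Erap1 was called, with Tapbp at an adjusted p of 0.0517 and 0.0511. Nlrc5 lost its call in 7 of the alternatives (adjusted p up to 0.133). Quantile scaling turned the split over all genes from 1039 higher and 1370 lower to 1568 and 1120, and added B2m as lower (-0.72, adjusted p = 0.0187). The comparisons against wild type and against Ebf1+/- share the 5 leukemia libraries, so their values are not separate evidence.

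**Figure D3:**
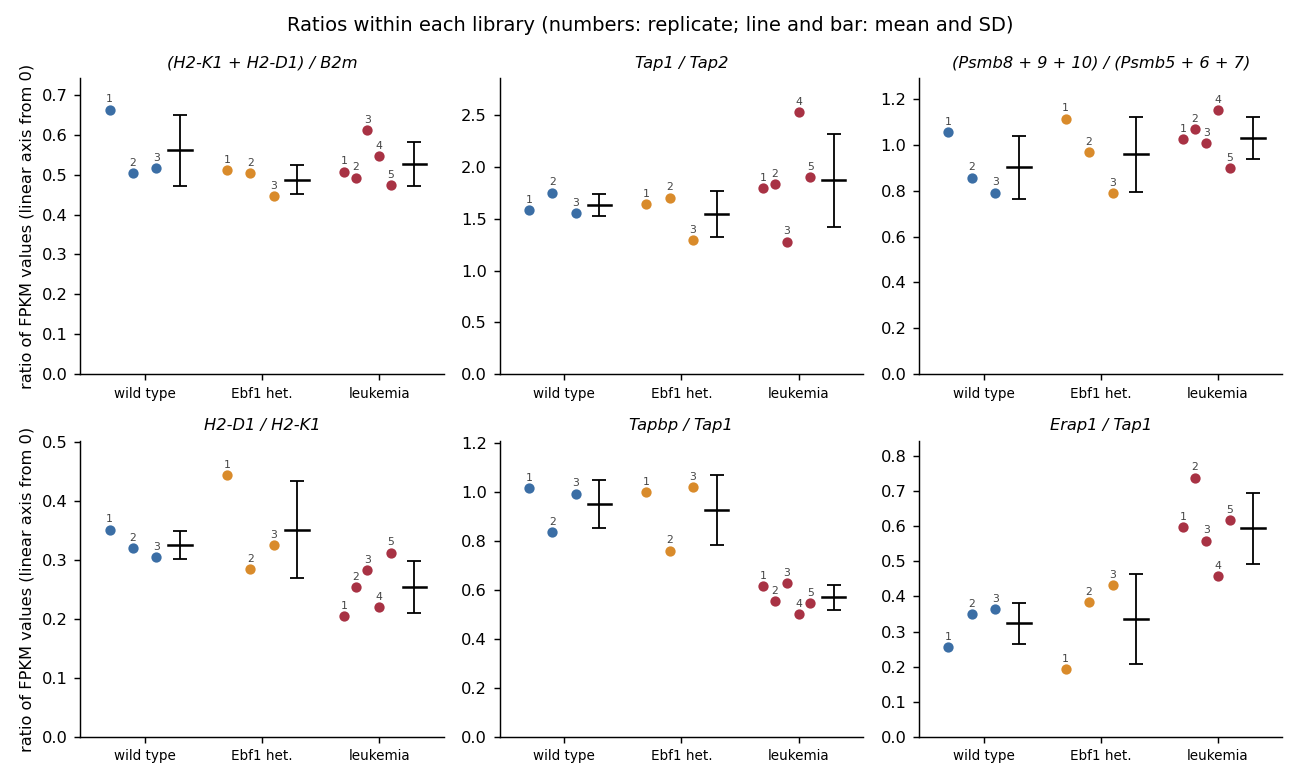
Ratios of FPKM values within each library, points numbered by replicate with the mean and SD beside each group, on linear axes from 0; the top row shows the ratios that were tested and the bottom row those chosen after the values were seen. The leukemias lie at 0.501 to 0.628 for Tapbp to Tap1 and at 0.458 to 0.738 for Erap1 to Tap1, apart from the 6 other libraries, while the groups overlap for the 3 tested ratios.

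Among the leukemias, replicate 4 stood highest for 8 of the 10 members, all except H2-M3 and Tap2. Its Nlrc5 was 26.3 FPKM, its H2-K1 855 and its B2m 1908, where the other 4 reached at most 20.9, 676 and 1603. Replicate 3 had the lowest Nlrc5 (12.7 FPKM), B2m (1041) and Erap1 (42.7), yet the highest Tap2. The T cell markers Cd3e, Cd8b1 and Cd2 were lowest in replicate 4 (0.377, 0.491 and 0.608 FPKM). Cd3d, Cd3g, Cd4 and Cd8a were lowest in other replicates. Lck and Lat were highest in replicate 4 (106 and 72.2 FPKM), as was the T cell marker sum, at 203 FPKM. The granulocyte sum was lowest there, at 2.19 FPKM. The part of other cells in the member values of replicate 4 was not tested.

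The genes that make peptides for class I rose in part. For each list below, the count stands beside 20.7% of all genes higher and 24.1% lower in leukemia against wild type, and a median of -0.04. Of 5 genes of the immunoproteasome (the interferon-inducible catalytic subunits) and of PA28 (an activator cap of the proteasome), 3 rose against wild type and 0 fell, with a median log2 fold change of 0.71. Psme2, a PA28 subunit, was at 74.0, 63.2 and 65.4 FPKM in wild type and 131, 138, 124, 126 and 106 in leukemia (difference 0.88, adjusted p = 0.000274). For Psme2, 59.3% of 50-base windows were found in another gene, so its level is uncertain. Psme1 was at 157, 150 and 138 FPKM against 260, 261, 248, 307 and 218 (difference 0.79, adjusted p = 0.000753). Both subunits were higher in all leukemias than in all wild-type libraries, where 46.3% of all genes had groups that did not overlap.

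The catalytic subunits split. Psmb8, named after its values were seen, rose by 0.71 (adjusted p = 0.000926), whereas Psmb9 and Psmb10 differed by 0.06 and -0.34 and did not pass (adjusted p = 0.775 and 0.138). Their constitutive counterparts Psmb5, Psmb6 and Psmb7 differed by 0.09, 0.07 and 0.08, and 0 of 3 passed. The ratio of the 3 immunoproteasome to the 3 constitutive subunits was 0.792 to 1.06 in wild type, 0.790 to 1.12 in Ebf1+/- and 0.900 to 1.15 in leukemia (exact permutation p = 0.161, adjusted p = 0.666, for leukemia against wild type).

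Of 7 loading chaperones tested, 4 rose and 1 fell against wild type (median 0.54). Pdia3, the thiol oxidoreductase ERp57 of the loading complex, was at 101, 127 and 131 FPKM in wild type and 230, 233, 228, 235 and 257 in leukemia (difference 0.98, adjusted p = 0.00015). Hspa5, the chaperone BiP, rose by 0.72 (adjusted p = 0.00168). The lectin chaperones Calr and Canx, named with Tapbpl after their values were seen, rose by 0.56 and 0.54 (adjusted p = 0.0132 and 0.0221). In Ebf1+/- against wild type Calr also differed by 0.56, without passing (adjusted p = 0.619). Between leukemia and Ebf1+/- it differed by -0.0002. Tapbpl, the tapasin-related editor of class I peptides, fell by 0.69 (adjusted p = 0.0079), next to the 0.70 of Tapbp itself.

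Other peptidases gave 1 rise and 1 fall among 7 (median 0.07). Lap3, a cytosolic leucine aminopeptidase, rose from 9.504, 20.3 and 26.9 FPKM in wild type to 36.3, 41.5, 36.6, 35.3 and 34.9 in leukemia (difference 1.04, adjusted p = 0.0116). Npepps, the puromycin-sensitive aminopeptidase, fell by 0.59 on the log2 scale (adjusted p = 0.00457). The trimming enzymes thus went in both directions, with Erap1 and Lap3 higher and Npepps lower.

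Of 20 other class I heavy chains and class I-like genes, 8 had enough signal to be tested, and 1 rose and 3 fell (median -0.20). Hfe, a class I-like regulator of iron uptake that also pairs with β2-microglobulin, was at 0.681, 0.881 and 1.32 FPKM in wild type, 3.15, 2.02 and 3.28 in Ebf1+/- and 4.85, 5.14, 6.37, 7.05 and 5.39 in leukemia (difference 1.79, adjusted p = 9.07e-05). Cd1d1, which presents lipids to NKT cells, was at 45.0, 24.2 and 24.4 FPKM in wild type and 13.8, 16.7, 13.6, 10.99 and 13.1 in leukemia (difference -1.09, adjusted p = 0.00315). Both had groups that did not overlap, as did 46.3% of all genes tested. The fall of H2-Q4 and H2-T24, named after their values were seen, was 0.83 and 0.62.

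**Figure D4:**
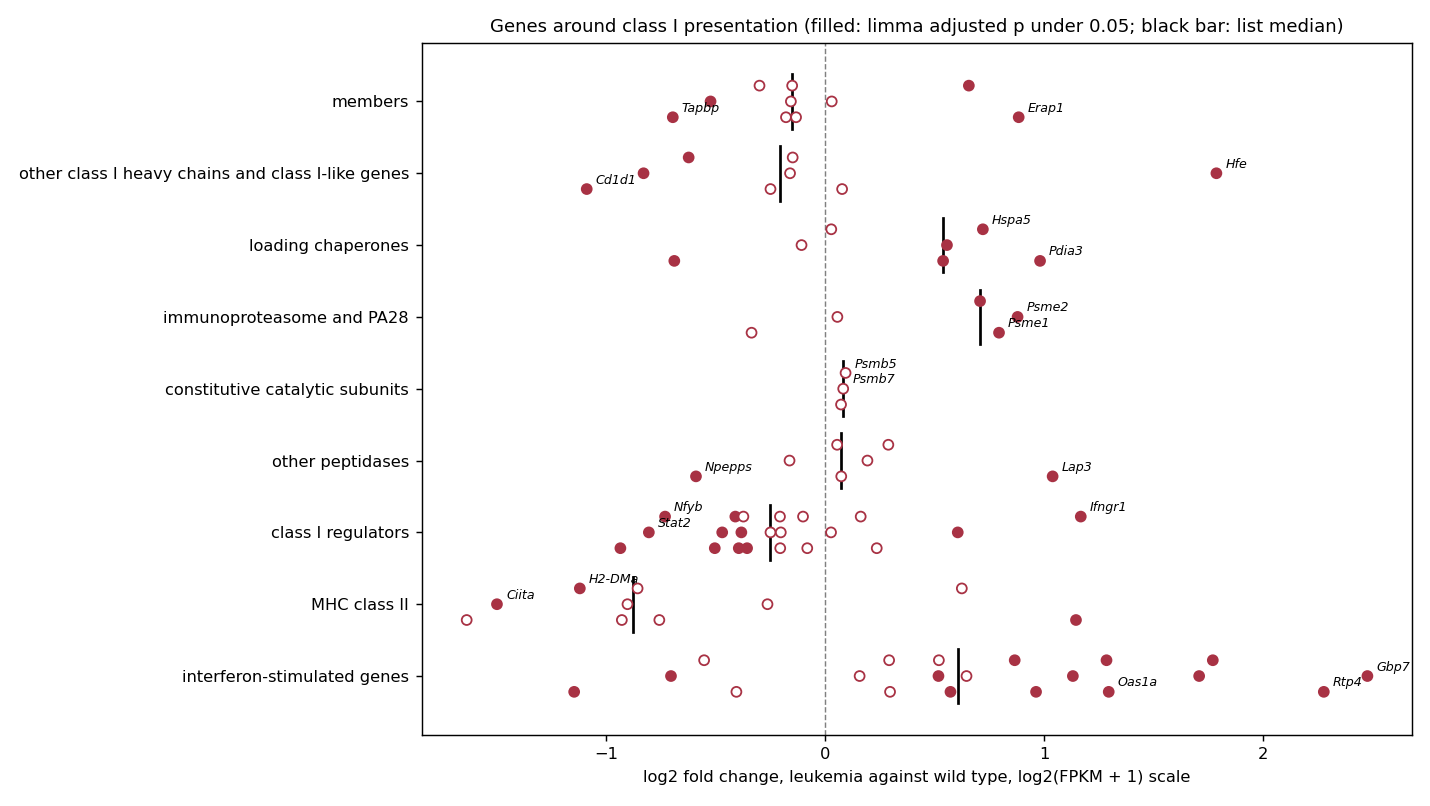
Log2 fold change of leukemia against wild type on the log2(FPKM + 1) scale for the genes tested in each list, 1 point a gene (filled where limma's adjusted p was under 0.05), with a bar at the list median. The members' median lies at -0.15, that of the immunoproteasome and PA28 genes at 0.71, and that of the class II genes at -0.88.

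Of 21 regulators of class I genes tested, 2 rose and 9 fell against wild type (median -0.25). Ifngr1, a chain of the interferon gamma receptor, was at 42.8, 42.2 and 63.7 FPKM in wild type and 111, 122, 107, 126 and 90.6 in leukemia (difference 1.17, adjusted p = 0.000563), and Ifngr2, its partner, rose by 0.61 (adjusted p = 0.00552). Stat2, which carries signals of type I interferon, was at 22.4, 16.0 and 19.7 FPKM against 10.5, 9.97, 9.89, 9.31 and 13.6 (difference -0.81, adjusted p = 0.00238). Jak2, Irf2 and Nfkb1, named after their values were seen, fell by 0.94, 0.50 and 0.36. Both receptor chains thus rose, while Jak1, Irf1 and Irf9 differed by 0.16, 0.03 and -0.10 and did not pass.

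The factors that bind the X and Y boxes went down or did not pass. Of these boxes, the stretches above mark only the X2 core and the Y box. Nfyb, a subunit of the Y box factor NF-Y, was at 42.2, 44.1 and 36.2 FPKM in wild type, 42.6, 36.1 and 27.2 in Ebf1+/- and 23.4, 24.1, 22.995, 23.9 and 26.4 in leukemia (difference -0.73, adjusted p = 0.000398). All leukemias lay below all other libraries. Of the 8 X and Y box factors in the list, a subset set apart after the values were seen, 0 rose and 4 fell (median -0.32). Besides Nfyb these were Nfyc, Rfxap (a subunit of the RFX complex) and Atf1, which fell by 0.38, 0.47 and 0.41.

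Interferon-stimulated genes, some of which share response elements with class I genes, gave 11 rises and 2 falls among 20 tested against wild type (median 0.61), beside 20.7% and 24.1% of all genes. Gbp7, an interferon-inducible GTPase, was at 4.14, 7.32 and 9.47 FPKM in wild type, 12.6, 18.2 and 14.8 in Ebf1+/- and 26.8, 44.5, 21.9, 78.3 and 60.2 in leukemia (difference 2.48, adjusted p = 0.00157). Rtp4, a transmembrane protein induced by interferon, rose by 2.28 (adjusted p = 0.000226) and Oas1a, a sensor of double-stranded RNA, by 1.30 (adjusted p = 0.00013). Rsad2 and Zbp1, named after their values were seen, fell by 0.70 and 1.15.

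In Ebf1+/- cells, 0 genes of these lists were called against wild type. Against the Ebf1+/- cells, the leukemias gave 1 rise and 0 falls among the 7 chaperones, 0 calls among the 5 immunoproteasome and PA28 genes, 1 rise and 2 falls among the 21 regulators, and 3 rises and 1 fall among the 20 interferon-stimulated genes. Over all genes in this comparison 9.31% were higher and 12.3% lower, so most of these counts were near the background. Pdia3, Lap3, Hfe, Ifngr1, Oas1a, Gbp7 and Rtp4 were higher and Npepps and Nfyb lower there too, with adjusted p-values of 0.00815 to 0.0373. Psme1 and Psme2 did not pass (adjusted p = 0.0502 and 0.0831), nor did Hspa5, Cd1d1 and Stat2 (0.0655, 0.064 and 0.0621). Other genes of these lists named above as rising or falling split. Jak2 and Zbp1 were lower there too (adjusted p = 0.0311 and 0.0229). Psmb8, Calr, Canx, Tapbpl, H2-Q4, H2-T24 and Ifngr2 did not pass. Irf2, Nfkb1, Nfyc, Rfxap, Atf1 and Rsad2 did not pass either.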

How the data were processed

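The authors deposited 1 table of FPKM values for 23071 gene identifiers, of which 27 were date serial numbers and were not used. Reads were aligned to mm10 (GRCm38), per the submitters' processing notes, which list BWA 0.7.12 for wild type and leukemia but TopHat2 and Cufflinks for Ebf1+/-. Any difference in alignment thus coincides with the Ebf1+/- group. The read counter and its annotation: not given in the sources used here. For all 17380 genes above 0, the deposited FPKM values were whole reads within 0.001 read once a gene length and library total were solved for. Reads carry no molecular identifiers, so they are not independent molecules.

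Values were taken as log2(FPKM + 1), which understates changes of low genes. Genes averaging 1 FPKM or more in the libraries compared entered limma 3.58.1 (R 4.3.3), fitted to those libraries alone with trended eBayes. P-values were two-sided, adjusted by Benjamini-Hochberg and called under 0.05. Ratios were tested by exact permutation over libraries. Other steps ran in Python 3.11.15 with pandas 2.3.3, NumPy 2.4.6 and, for plots, Matplotlib 3.10.9. Gene positions are from GENCODE M21 (GRCm38), and upstream sequences from RefSeq (GRCm38.p6), printed without bases that GENCODE marks as exon, except for the 30-base element of H2-D1. In simulated reads (dispersion 0.05), the limma fit found 71.4% of genes changed by 2-fold in the design of leukemia against wild type (10939 genes), 61.0% in that of Ebf1+/- against wild type (11182 genes) and 66.0% in that of leukemia against Ebf1+/- (11143 genes). The same dispersion was set for every gene and group. In Ebf1+/- the members' coefficients of variation ran from 6.48% (Tap2) to 62.0% (H2-D1). These shares may thus be too high for widely spread members.

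The members, gene lists and tests were chosen with earlier results of these data known. The genes named were all members, the 2 genes of smallest p in each list (3 where over 8 were called), Psmb5, Psmb6 and Psmb7, and the 5 genes most like Nlrc5 and most like B2m by Pearson correlation over the 11 libraries, leaving out symbols that start with Gm and digits or end in Rik. Pairing by replicate number was checked with each library's deviation from its group mean. Same-numbered wild-type and Ebf1+/- libraries correlated at 0.65, 0.322 and 0.693, so the numbers were taken to pair them, from the data and not from a stated batch. The alternatives changed the pseudocount, the filter, the scaling (quantile or median-ratio), the groups in the fit, the replicate block or the test (voom on recovered reads), or left out each replicate. Leaving out both libraries numbered 1 was added after seeing the data. One gene of the regulator list is not reported here by name.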

Additional observations from a re-analysis of the deposited data

Results flagged for a closer look

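In 5 cases, 1 of the 5 leukemia libraries stood apart from the other 4 for a named gene by Dixon's test, out of 32 sets of leukemia values tested. The sets were the members, the list genes of smallest p, Psmb5, Psmb6, Psmb7 and the ratios tested by permutation. Chance gives about 1 in 20. Tap1 was highest in leukemia replicate 4 at 124.876 FPKM, with a gap to the next library of 0.926 of the whole range. H2-D1 was also highest in replicate 4, at 188.2 FPKM (gap 0.727). Lap3 was highest in replicate 2 at 41.5181 FPKM (gap 0.743). Pdia3 and Stat2 were highest in replicate 5, at 256.674 and 13.6287 FPKM (gaps 0.753 and 0.727).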

How the results depend on the processing

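In leukemia against wild type, the count of members called was 4 in the main setting and 2 to 4 on leaving out 1 library, being 2 (Tapbp and Erap1) without wild-type replicate 1, leukemia replicate 1 or leukemia replicate 2, and 6 with quantile scaling. Against Ebf1+/- it was 3, and 1 to 3 on leaving out 1 library. Numbers shared between leukemia and the other groups paired nothing (correlations of -0.134 to 0.0734). The replicate block, a term for the number, gave 3 members against wild type, without Nlrc5 (0.58, adjusted p = 0.0696). It gave 0 for leukemia against Ebf1+/-, where Tapbp, Nlrc5 and Erap1 had adjusted p-values of 0.0626, 0.0664 and 0.07. For Ebf1+/- against wild type the block gave 0 and changed no call. There the pairing by number was taken from the data, and the labels state none. With the block Tap1 was at -0.12 against wild type and -0.15 against Ebf1+/-. Uncalled differences that changed sign are given as log2 values. For Ebf1+/- against wild type, quantile scaling gave -0.062 for H2-D1, -0.067 for H2-T23, -0.077 for B2m and -0.042 for Tap1. Median-ratio scaling gave -0.018 for H2-T23, -0.012 for Tap1 and -0.021 for Erap1. Leaving out both libraries numbered 1 gave -0.18 for H2-D1, -0.10 for H2-T23, -0.047 for B2m and -0.018 for Tap1. For leukemia against Ebf1+/-, H2-M3 was at 0.092 with quantile and 0.011 with median-ratio scaling. Medians in place of means gave a Tap1 to Tap2 difference of 0.052 for Ebf1+/- against wild type. On leaving out 1 library the ranges against wild type in leukemia were -0.28 to 0.0086 for H2-K1, -0.11 to 0.087 for Tap1 and -0.16 to 0.040 for the heavy chain to B2m ratio. For Ebf1+/- against wild type they were -0.31 to 0.21 for H2-K1, -0.40 to 0.34 for H2-D1, -0.32 to 0.24 for H2-T23, -0.51 to 0.088 for H2-M3, -0.10 to 0.39 for B2m, -0.075 to 0.16 for Tap1, -0.18 to 0.089 for Tapbp, -0.15 to 0.26 for Erap1, -0.16 to 0.039 for the Tap1 to Tap2 ratio and -0.032 to 0.22 for the immunoproteasome ratio. For leukemia against Ebf1+/- they were -0.37 to 0.15 for H2-K1, -0.49 to 0.019 for H2-T23, -0.27 to 0.33 for H2-M3, -0.14 to 0.11 for Tap1 and -0.017 to 0.23 for the immunoproteasome ratio. Quantile scaling moved the median of all genes from -0.02 to 0.08 in leukemia against Ebf1+/-. Over all genes, Ebf1+/- against wild type gave 0 calls in the main setting, 1 higher and 2 lower with pseudocount 0.1, 0 and 2 with median-ratio scaling, 11 and 12 with all groups in 1 fit and 4 and 1 without Ebf1+/- replicate 3, and leukemia against Ebf1+/- gave 350 higher and 594 lower with the replicate block. The cause of these changes was not tested. Members were covered by at least 274 reads in each library.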

Other observations

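MHC class II genes, which present peptides from outside the cell, were also read in these libraries. Of 10 tested, 2 fell and 1 rose in leukemia against wild type, with a median log2 fold change of -0.88, where 24.1% of all genes fell and 20.7% rose, so the counts were no higher than the background. Ciita, the class II transactivator and a relative of Nlrc5, was at 7.34, 7.44 and 5.98 FPKM in wild type, 3.21, 7.35 and 3.32 in Ebf1+/- and 3.59, 1.44, 2.08, 0.902 and 1.58 in leukemia (limma difference -1.50, adjusted p = 0.0019). H2-DMa, a chain of the class II peptide editor, was at 21.2, 16.6 and 21.6 FPKM in wild type and 13.05, 3.08, 11.5, 10.3 and 8.55 in leukemia (limma difference -1.12, adjusted p = 0.0313). H2-DMb2, named after its values were seen, rose by 1.15 (limma adjusted p = 0.0385). Cd74, the invariant chain, also chosen after its values were seen, ran from 41.9 to 355 FPKM over the leukemias and from 143 to 202 in wild type, and did not pass. Leukemia replicate 1 had the highest Ciita, H2-DMa and Cd74 of the leukemias. It also had the highest dendritic cell marker sum, 10.4 FPKM against 0.463 to 0.990 in the other 4. Siglech was at 7.90 and the macrophage marker Csf1r at 14.9 FPKM there, against at most 0.408 and 3.43. Other markers went another way. Clec9a was at 0 in replicate 1, and Xcr1 was highest in replicate 2, at 0.309 FPKM. The monocyte and macrophage sum was 101 FPKM in replicate 1, against 159 and 150 in replicates 3 and 5. The part of such cells in the class II values was not tested. In contrast, replicate 4 had the highest of most class I genes and the lowest Ciita.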
